A study of Mus musculus with 21 samples.

Results

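The genes described here are 10 cell cycle brakes: the CDK inhibitor genes Cdkn1a, Cdkn1b, Cdkn1c, Cdkn2a, Cdkn2b and Cdkn2c, and 4 genes known as p53 targets that restrain proliferation, Btg2, Plk2, Plk3 and Zmat3. They were chosen by symbol, and all 10 of 10 were found among the 20900 genes of the deposited expression table. RNA was measured in E14 cells, a mouse embryonic stem cell line of the 129 strain grown with serum and leukaemia inhibitory factor. The 7 groups were untreated cells at 0 h and cells given 1 µM BMH-21 or 1 µM CX-5461 for 2, 4 or 8 h. Both compounds inhibit RNA polymerase I, which transcribes ribosomal DNA. Each group had 3 libraries of poly(A) RNA, 21 in all. The labels do not say whether the 3 libraries of a group came from separate cultures, so the p-values measure only the spread between these samples, which may be technical. The same 0 h libraries were the control for both compounds at every time. No untreated library was taken at 2, 4 or 8 h, so time in the treatment medium and the compound cannot be told apart. All results come from 1 cell line.

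Cyclin-dependent kinases (CDKs) drive the cell cycle, and 2 protein families hold them back. The Cip/Kip proteins p21 (Cdkn1a), p27 (Cdkn1b) and p57 (Cdkn1c) bind cyclin-CDK complexes, whereas the INK4 proteins bind CDK4 and CDK6 and keep them from cyclin D. When ribosome production fails, free ribosomal proteins are known to bind Mdm2 and stabilise p53, whose best known arrest target is Cdkn1a. Embryonic stem cells are known for a short G1 phase and for low levels of most CDK inhibitors.

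The whole reads recovered from the deposited values summed to 46604397 to 62812641 per library. Testing required a log2 value over 0 in 3 or more of the 21 libraries, a limit met by 14666 genes and by 9 of the 10 described here. Cdkn2c was below that limit and is given as values only. Each library had been scaled by its own factor before deposit, and the middle of all tested genes moved between groups. Centring each library on the median of the tested genes removed a log2 shift from control of -0.08, -0.15 and -0.21 at the 3 times of BMH-21. For CX-5461 the shift was -0.15, -0.16 and 0.22. Changes are given on the deposited scale, with the centred value where it matters. The 10 markers listed for embryonic stem cells were above log2 0 in every library, and their summed linear level ran from 6308.7 to 7189.9 in control. With BMH-21 it was 5213.0 to 5769.7 at 2 h, 3646.3 to 4254.5 at 4 h and 2976.9 to 3181.9 at 8 h. With CX-5461 it was 4718.9 to 5595.6 at 2 h, 3682.3 to 4399.3 at 4 h and 5655.7 to 6074.4 at 8 h. Every treated library was thus below every control library in this sum, from 2 h on. Of 8 fibroblast markers, 3 were above log2 0 in all control libraries and 4 in all libraries of each treated group. Their mean log2 levels in control ran from -5.48 (Lum) to 4.48 (Thy1). With BMH-21 Col1a1 reached 4.97 at 4 h and 5.01 at 8 h. Summed, the fibroblast markers ran from 33.9 to 38.2 in control. They ran from 46.4 to 56.6 at 4 h and from 42.4 to 50.4 at 8 h of BMH-21. After 8 h of CX-5461 they were at 49.9 or above. At 2 h of both inhibitors and at 4 h of CX-5461 these sums overlapped control. The summed trophectoderm markers ran from 77.4 to 84.1 in control, led by Tfap2c. At 2 and 4 h of both inhibitors they were lower, at 74.6 or below. After 8 h of BMH-21 they ran from 159.8 to 181.9, and after 8 h of CX-5461 from 135.7 to 156.7. The summed neuroectoderm markers ran from 174.9 to 189.6 in control, from 70.3 to 75.8 with BMH-21 at 8 h and from 197.6 to 212.3 with CX-5461 at 8 h. The part of these markers in the results was not tested.

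In the mouse genome (GRCm38, the assembly of the submitters' mm10, with GENCODE M21) the genes lie on 7 chromosomes. Cdkn1a spans chr17:29090976-29100727 and Cdkn1b chr6:134920401-134925513, both on the plus strand, and Cdkn1c spans chr7:143458339-143461050 on the minus strand. Cdkn2a (chr4:89274471-89294653) and Cdkn2b (chr4:89306299-89311039) are neighbours on the minus strand, with 11645 bases between them. Cdkn2a has 2 protein-coding transcripts, which are known to start at separate promoters and to encode the unrelated proteins p16 and ARF, so its value is a sum over both. Btg2 lies at chr1:134075170-134079120, Plk3 at chr4:117128655-117133963 and Zmat3 at chr3:32334792-32366014, all on the minus strand, and Plk2 at chr13:110395046-110400844 on the plus strand. Cdkn2c lies at chr4:109660876-109667189 on the minus strand. Annotated genes overlap Cdkn1a, Cdkn1c (Gm44732) and Plk3 (Tctex1d4) on the opposite strand. The strand setting of the counting is not given in the sources used here, so reads of these partners cannot be told apart.

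The p53 response element is shown because Cdkn1a, Btg2, Plk2, Plk3 and Zmat3 are known as p53 targets. RefSeq promoter windows (GRCm38.p6, 250 bases before to 50 after a start site) were found for 8 of the 10 genes, in 11 windows. Cdkn1c and Zmat3 were not matched. The p53 consensus decamer, the 10-letter unit of which the element holds a pair, reads the same on both strands. It occurred in 2745 of 32851 windows of all genes (8.36%). Among the members it occurred in the first of the 2 windows of Cdkn1a alone, with 2 matches. The second match starts at base -51 from the start site of that window and opens the element shown here. The same element starts 2841 bases before the start site of the second Cdkn1a window, which held no match. The full element of 20 letters with at most 1 mismatch was found in 29 windows of all genes (0.0883%), again with Cdkn1a as the sole member. This element, in capitals, lies at chr17:29090928-29090947 in the following stretch, chr17:29090888-29090967 on the plus strand:
Cdkn1a: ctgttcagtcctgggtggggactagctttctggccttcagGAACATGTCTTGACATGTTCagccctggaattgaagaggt
The closest match to the full element in each member with a window is given below (for Cdkn2a the first of its 2 equal ones), with capitals for the letters that match the consensus:
Cdkn1a: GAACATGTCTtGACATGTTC
Cdkn1b: GGGCcAGCCaGAGCAgGTTT
Btg2: GGGaAAGTCCGGGCAgagCC
Cdkn2c: GGtgTTGTCTGAGCTgaCCT
Cdkn2b: cAACTTtTTCAAAaATagCC
Plk2: GctCTTGCTCGcACAAGCga
Plk3: GAGCAgGgTTAcACcTGCCa
Cdkn2a: GcGggAtCCgGAGCgTGCCC
The match of Cdkn1a had 1 mismatch, that of Cdkn1b 3, those of Btg2 and Cdkn2c 4 each, those of Cdkn2b, Plk2 and Plk3 5 each and that of Cdkn2a 6. Over all windows the median of the fewest mismatches was 5. The 20 letters were scored as 2 decamers with no bases between them, so elements whose decamers lie apart were not scored. A match of letters is not a bound site, and no match says nothing of elements outside these windows.

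Cdkn1a, Cdkn2b, Btg2 and Plk2 rose at all 3 times of both inhibitors, by 3.45-fold to 12.7-fold, with no overlap between treated and control libraries. Zmat3 rose at 4 and 8 h of both, by 1.88-fold to 2.34-fold. Cdkn1b went the other way and fell at 2 and 4 h of both inhibitors. Plk3 changed direction with time and compound. On the deposited scale Cdkn1c rose by less than 1.5-fold and Cdkn2a passed the test in no comparison with control. A call is a Benjamini-Hochberg adjusted p under 0.05 from limma over all 14666 genes.

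Against control, 7 of the 9 tested members were higher and 1 lower at 2 h of BMH-21, where 19.7% of all tested genes were called, 8.48% as higher and 11.2% as lower. At 4 h the members split into 6 higher and 2 lower, beside 67.0% of all genes (22.1% higher and 44.9% lower). At 8 h they again split into 6 and 2, beside 81.5% (24.5% higher and 56.9% lower). CX-5461 gave 4 higher and 1 lower at 2 h (27.9% of all genes called, 7.45% higher and 20.5% lower), 5 and 1 at 4 h (70.9%, 19.8% higher and 51.2% lower), and 7 and 0 at 8 h (49.4%, 35.1% higher and 14.3% lower). Libraries entirely above control, as in the 4 genes that rose throughout, were found in 11.0%, 22.8% and 24.1% of all tested genes at the 3 times of BMH-21 and in 8.71%, 20.8% and 42.8% at those of CX-5461.

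Centring left the members' counts at 7 and 1, 6 and 2, and 6 and 1 for BMH-21, and at 6 and 1, 6 and 1, and 7 and 1 for CX-5461. The split of all genes moved too. With BMH-21, 18.6%, 32.2% and 33.3% were then higher and 17.5%, 41.5% and 51.3% lower. With CX-5461, 15.8%, 28.5% and 29.3% were higher and 17.8%, 45.7% and 44.7% lower. The members' median log2 change was 0.31, 1.02 and 1.23 for BMH-21, against -0.07, -0.21 and -0.40 over all tested genes. For CX-5461 it was 0.26, 0.91 and 1.00, against -0.18, -0.28 and 0.11. In bulk RNA a change in the share of cells that express a gene and a change in RNA per cell cannot be told apart.

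**Figure D1:**
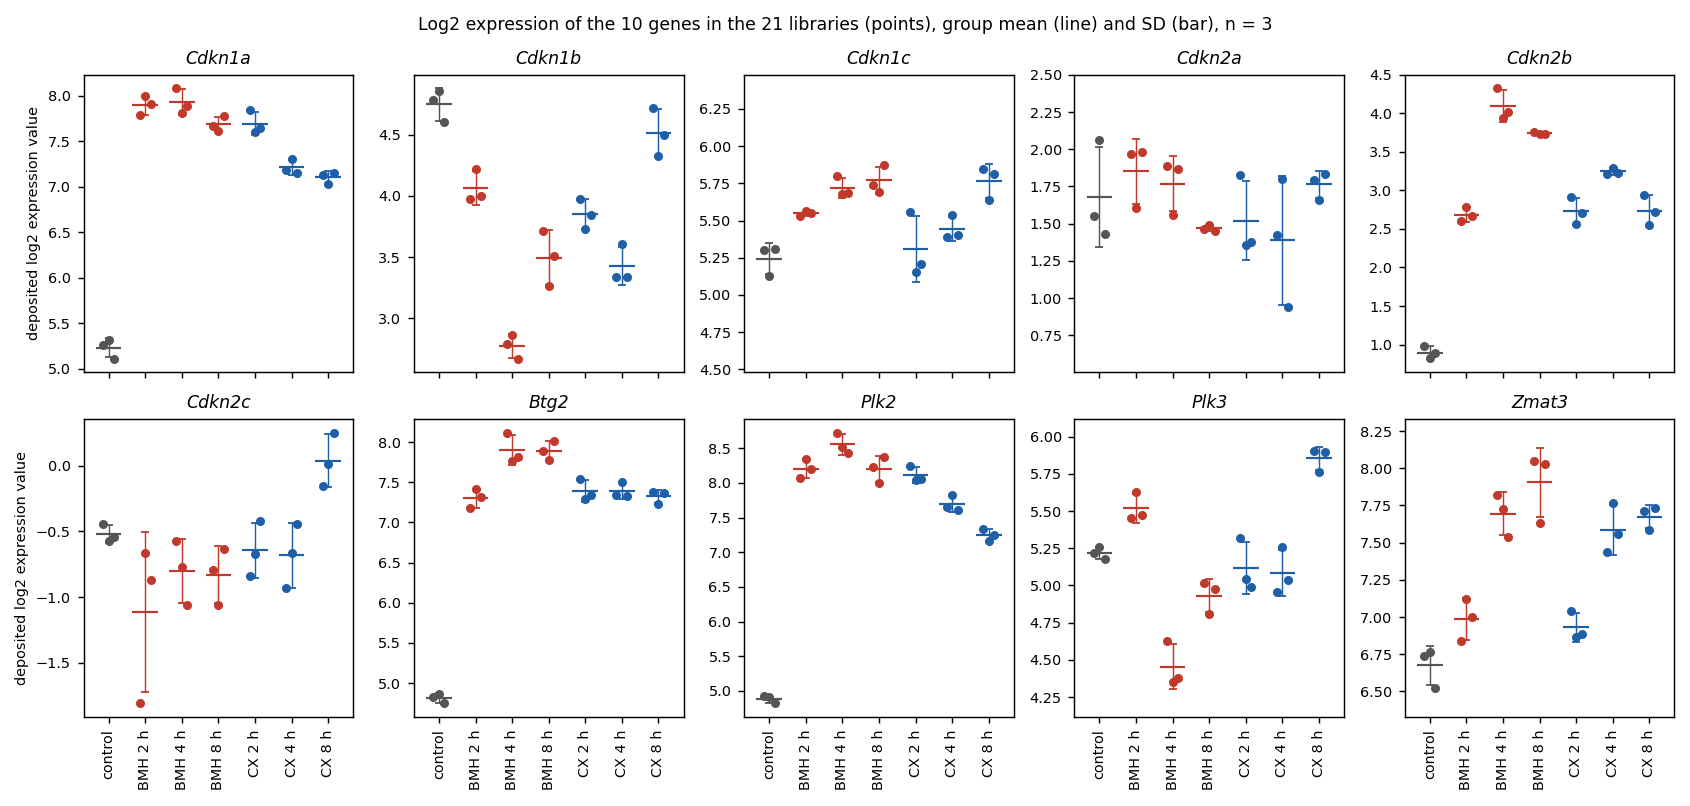
Deposited log2 expression value (y axis, one scale per gene) of the 10 genes in the 7 groups, with each library as a point, the group mean as a line and the SD as a bar (n = 3). Control libraries of Cdkn1a lie between 5.11 and 5.32 and all treated ones at 7.02 or above, whereas Cdkn1b drops to 2.67 to 2.86 after 4 h of BMH-21.

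Cdkn1a encodes p21, which binds cyclin-CDK2 complexes and PCNA. In the 3 control libraries its deposited log2 values were 5.26, 5.32 and 5.11, from 1638 to 1810 reads. BMH-21 libraries held Cdkn1a at 7.79, 8.00 and 7.91 after 2 h, at 8.08, 7.81 and 7.89 after 4 h, and at 7.66, 7.62 and 7.78 after 8 h. CX-5461 libraries held it at 7.84, 7.59 and 7.64 after 2 h, at 7.18, 7.30 and 7.15 after 4 h, and at 7.13, 7.02 and 7.15 after 8 h. Every treated library was above every control library, and the level was already near its highest at 2 h. The rise at 2 h was 2.67 ± 0.10 (log2, SE, n = 3 against 3) with BMH-21, or 6.36-fold, with a limma adjusted p of 3.0e-48. For CX-5461 it was 2.46 ± 0.10, or 5.50-fold (limma adjusted p = 1.2e-44). By 8 h the rises were 2.46 ± 0.10 with BMH-21 (5.48-fold) and 1.87 ± 0.10 with CX-5461 (3.66-fold, limma adjusted p = 1.1e-34). In the order of group means, BMH-21 at 4 and 2 h overlapped each other, as did BMH-21 at 8 h and CX-5461 at 2 h, and CX-5461 at 4 and 8 h came last among the treated groups.

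Cdkn1b encodes p27, which is known to hold cyclin E-CDK2 inactive in resting cells. Its control values were 4.78, 4.86 and 4.60 (1149 to 1318 reads). With BMH-21 Cdkn1b stood at 3.97, 4.22 and 4.00 at 2 h, at 2.79, 2.86 and 2.67 at 4 h, and at 3.72, 3.26 and 3.51 at 8 h. With CX-5461 it stood at 3.97, 3.73 and 3.84, then 3.34, 3.61 and 3.34, then 4.72, 4.32 and 4.50. The lowest values came at 4 h with both inhibitors, and after 8 h of CX-5461 the libraries overlapped control. Cdkn1b fell by 1.97 ± 0.12 on the log2 scale after 4 h of BMH-21, a level 3.93-fold below control (limma adjusted p = 9.7e-32), and by 1.25 ± 0.12 after 8 h (limma adjusted p = 4.4e-18). With CX-5461 it fell by 1.32 ± 0.12 at 4 h, 2.49-fold below control (limma adjusted p = 5.2e-19). Its difference of -0.23 ± 0.12 at 8 h of CX-5461 did not pass (limma adjusted p = 0.096), but it passed after centring, at -0.45 (adjusted p = 2.4e-05), and without CX-5461 8 h replicate 1, at -0.34 (adjusted p = 0.035).

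Cdkn1c encodes p57, an imprinted CDK inhibitor known from embryonic growth control. Its 3 control values were 5.30, 5.12 and 5.31, and the highest treated group means were those at 8 h, 5.77 ± 0.09 (SD, n = 3) for BMH-21 and 5.77 ± 0.11 for CX-5461. Treated libraries were above control at all times of BMH-21 and at 4 and 8 h of CX-5461, by small amounts. Cdkn1c rose by 0.48 ± 0.11 at 4 h and 0.52 ± 0.11 at 8 h of BMH-21 (limma adjusted p = 6.8e-05 and 7.7e-06) and by 0.52 ± 0.11 at 8 h of CX-5461 (2.3e-05). After centring these rises were 0.62, 0.74 and 0.31. The call at 2 h of BMH-21 (0.30 ± 0.11, limma adjusted p = 0.035) was lost when any 1 of the 3 BMH-21 libraries or control replicate 1 or 2 was left out, with changes from 0.24 to 0.33. At 2 and 4 h of CX-5461 the differences were 0.06 ± 0.11 and 0.20 ± 0.11 (limma adjusted p = 0.67 and 0.095). After centring both passed, at 0.21 and 0.36 (adjusted p = 0.029 and 1.1e-04).

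The opposite course of the first 2 Cip/Kip genes can be read within each library, where library scaling cancels. The log2 ratio of Cdkn1a to Cdkn1b reads was 0.48 ± 0.03 (SD, n = 3) in control. At the 3 times of BMH-21 it was 3.83 ± 0.07, 5.15 ± 0.18 and 4.19 ± 0.21. For CX-5461 the same times gave 3.84 ± 0.04, 3.78 ± 0.08 and 2.59 ± 0.15. All treated libraries were at 2.41 or above and no control library was above 0.51. The ratio shows unequal change of the pair and does not tell which gene moved.

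**Figure D2:**
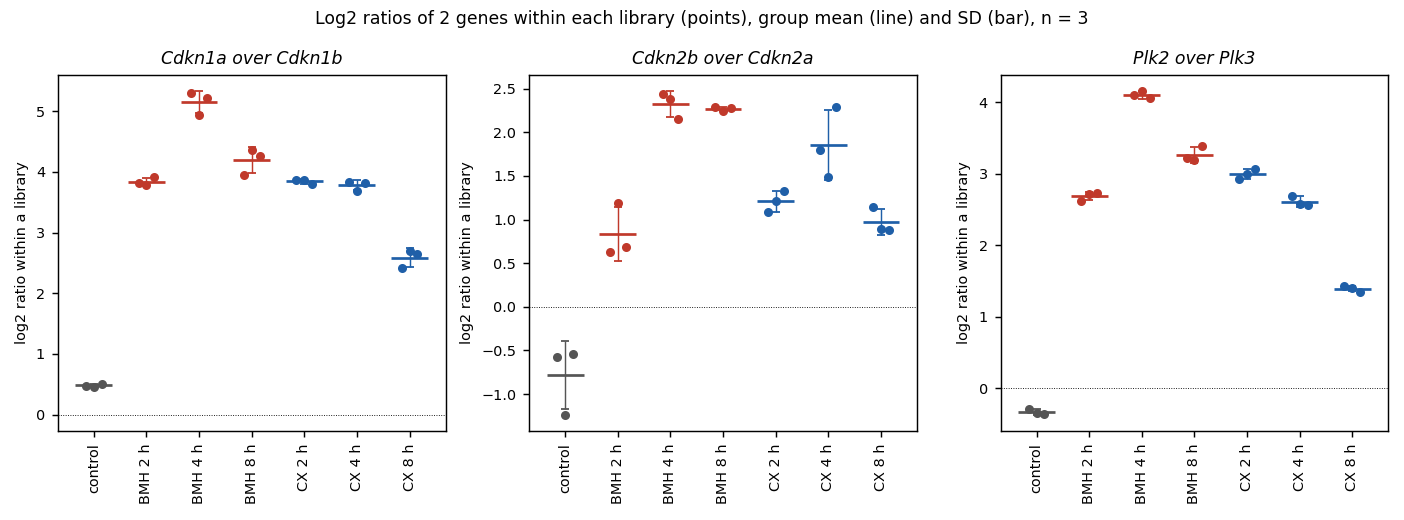
Log2 ratio of reads (y axis) of Cdkn1a over Cdkn1b, Cdkn2b over Cdkn2a and Plk2 over Plk3 within each library, shown as points with the group mean (line) and SD (bar), n = 3. Each ratio is highest after 4 h of BMH-21, at means of 5.15, 2.32 and 4.10, and falls between 4 and 8 h of CX-5461.

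The INK4 genes differed from one another. Cdkn2b encodes p15, known as a target of TGF-beta signalling, and its control values were 0.98, 0.82 and 0.88, from only 80 to 92 reads. BMH-21 libraries held Cdkn2b at 2.60, 2.79 and 2.66 at 2 h, at 4.33, 3.94 and 4.02 at 4 h and at 3.75, 3.73 and 3.73 at 8 h. With CX-5461 the values were 2.91, 2.57 and 2.71, then 3.22, 3.30 and 3.22, then 2.94, 2.55 and 2.72. Cdkn2b thus peaked at 4 h with both inhibitors and stayed above every control library. Its rise after 4 h of BMH-21 was 3.20 ± 0.13, or 9.17-fold (limma adjusted p = 1.3e-48), and after 4 h of CX-5461 it was 2.35 ± 0.13, or 5.09-fold (limma adjusted p = 9.7e-36).

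Cdkn2a, next to Cdkn2b, had control values of 1.55, 2.06 and 1.43, from 127 to 189 reads. Its treated libraries ran from 0.94 (CX-5461 4 h replicate 3) to 1.98 (BMH-21 2 h replicate 3) and overlapped control in all 6 groups. Against control, the 95% intervals of Cdkn2a were -0.16 to 0.50, -0.24 to 0.42 and -0.54 to 0.12 at 2, 4 and 8 h of BMH-21. For CX-5461 they were -0.49 to 0.17, -0.62 to 0.04 and -0.25 to 0.41. None of these 6 differences passed on the deposited scale (limma adjusted p from 0.11 to 0.7). Under quantile normalization Cdkn2a was called lower at 8 h of BMH-21 (-0.46, adjusted p = 0.015) and at 4 and 8 h of CX-5461 (-0.41 and -0.48, adjusted p = 0.032 and 0.015), which the centred values of 0.00, -0.14 and -0.13 were not. At 4 h of CX-5461 the difference of -0.29 passed without control replicate 3, at -0.42 (adjusted p = 0.04), or without CX-5461 4 h replicate 2, at -0.50 (adjusted p = 0.0095). The within-library log2 ratio of Cdkn2b to Cdkn2a was -0.78 ± 0.39 (SD, n = 3) in control and 2.32 ± 0.15 and 1.86 ± 0.40 after 4 h of BMH-21 and CX-5461. No treated library was below 0.63 and no control library above -0.54.

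Cdkn2c encodes p18, the INK4 protein known for its role in haematopoietic and germ cells. It was covered by 13 to 52 reads per library, too few to pass the filter. Control values were -0.44, -0.58 and -0.54. BMH-21 libraries ran from -1.81 to -0.58, the highest of them level with the lowest control library, while CX-5461 libraries ran from -0.93 to -0.42 at 2 and 4 h. After 8 h of CX-5461 the values were -0.15, 0.01 and 0.25, above the libraries of all other groups. These values were not tested.

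Btg2 encodes an antiproliferative protein that recruits the CCR4-NOT deadenylase to mRNA. Its control values were 4.83, 4.87 and 4.75. With BMH-21 Btg2 reached 7.18, 7.41 and 7.31 at 2 h, 8.12, 7.77 and 7.81 at 4 h and 7.89, 7.77 and 8.01 at 8 h. CX-5461 gave 7.55, 7.29 and 7.34, then 7.34, 7.51 and 7.33, then 7.37, 7.23 and 7.36. On the deposited scale the level with BMH-21 went up from 2 to 4 h and held, whereas the 3 CX-5461 groups overlapped one another. After centring, Btg2 fell by 0.44 from 4 to 8 h of CX-5461 (limma adjusted p = 1.5e-09), and with quantile normalization it fell by 0.34. The BMH-21 change against control went from 2.49 ± 0.11 at 2 h (5.60-fold, limma adjusted p = 1.6e-44) to 3.08 ± 0.11 at 8 h (8.43-fold, limma adjusted p = 1.2e-55). Under CX-5461 the changes at 2 and 4 h were both 2.58 ± 0.11, and the one at 8 h was 2.51 ± 0.11, or 5.69-fold (limma adjusted p = 5.4e-46).

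Plk2 and Plk3 encode polo-like kinases linked to stress responses and the G1-S and G2-M checkpoints. Plk2 had control values of 4.93, 4.91 and 4.82. BMH-21 libraries held Plk2 at 8.08, 8.34 and 8.20 at 2 h, 8.72, 8.51 and 8.43 at 4 h and 8.23, 7.99 and 8.37 at 8 h. CX-5461 libraries held it at 8.24, 8.04 and 8.05, then 7.65, 7.83 and 7.61, then 7.33, 7.16 and 7.25. Plk2 peaked at 4 h of BMH-21 and at 2 h of CX-5461, after which the CX-5461 groups stepped down without overlap. At 4 h of BMH-21 the rise was 3.67 ± 0.11, or 12.7-fold (limma adjusted p = 1.6e-63), the largest of any member. With CX-5461 it was 3.22 ± 0.11 at 2 h (9.34-fold, limma adjusted p = 7.8e-56) and 2.36 ± 0.11 at 8 h (5.13-fold, limma adjusted p = 1.6e-43).

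Plk3 did not follow Plk2. Its control values were 5.22, 5.26 and 5.18, with 5.45, 5.63 and 5.47 at 2 h of BMH-21, 4.63, 4.35 and 4.38 at 4 h and 5.01, 4.81 and 4.98 at 8 h. CX-5461 libraries held Plk3 at 5.32, 5.04 and 4.99, then 4.96, 5.26 and 5.04, then 5.90, 5.77 and 5.89. The 4 h BMH-21 libraries were the lowest of all 21 and the 8 h CX-5461 libraries the highest. At 4 h of BMH-21 Plk3 fell by 0.76 ± 0.11 (limma adjusted p = 1.1e-09) and at 8 h of CX-5461 it rose by 0.64 ± 0.11 (limma adjusted p = 3.9e-07). Both held after centring, at -0.61 and 0.42. At 8 h of BMH-21 it fell by 0.29 ± 0.11 (limma adjusted p = 0.015), but the difference was -0.07 after centring, 0.07 with median-ratio factors and 0.01 with quantile normalization, and without BMH-21 8 h replicate 2 it was -0.22 (adjusted p = 0.073). The rise of 0.30 ± 0.11 at 2 h of BMH-21 (limma adjusted p = 0.041) was lost when any 1 of the 6 libraries was left out, with changes from 0.24 to 0.33. Within libraries, the log2 ratio of Plk2 to Plk3 was -0.33 ± 0.04 (SD, n = 3) in control. Its highest group mean was 4.10 ± 0.05, at 4 h of BMH-21, and its lowest treated one 1.39 ± 0.04, at 8 h of CX-5461.

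Zmat3 (also Wig-1) encodes a zinc finger protein that binds RNA. Its control values were 6.74, 6.76 and 6.52. With BMH-21 Zmat3 stood between 6.84 and 7.12 at 2 h, with a mean of 6.99 ± 0.14 (SD, n = 3), and at 7.82, 7.73 and 7.54 at 4 h and 8.05, 7.63 and 8.03 at 8 h. CX-5461 libraries held it at 7.04, 6.87 and 6.88, then 7.44, 7.77 and 7.55, then 7.71, 7.58 and 7.73. Zmat3 was thus slower than Cdkn1a, Btg2 and Plk2 in these libraries, with most of its rise between 2 and 4 h. At 8 h it was 1.23 ± 0.11 above control with BMH-21 (2.34-fold, limma adjusted p = 3.0e-20) and 1.00 ± 0.11 with CX-5461 (2.00-fold, limma adjusted p = 9.5e-15). The 2 h rise with BMH-21 (0.31 ± 0.11, limma adjusted p = 0.028) was lost without BMH-21 2 h replicate 2 (0.24), BMH-21 2 h replicate 3 (0.30) or control replicate 3 (0.23). At 2 h of CX-5461 the difference of 0.26 ± 0.11 did not pass (limma adjusted p = 0.062), but it passed after centring, at 0.40 (adjusted p = 7.5e-07).

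**Figure D3:**
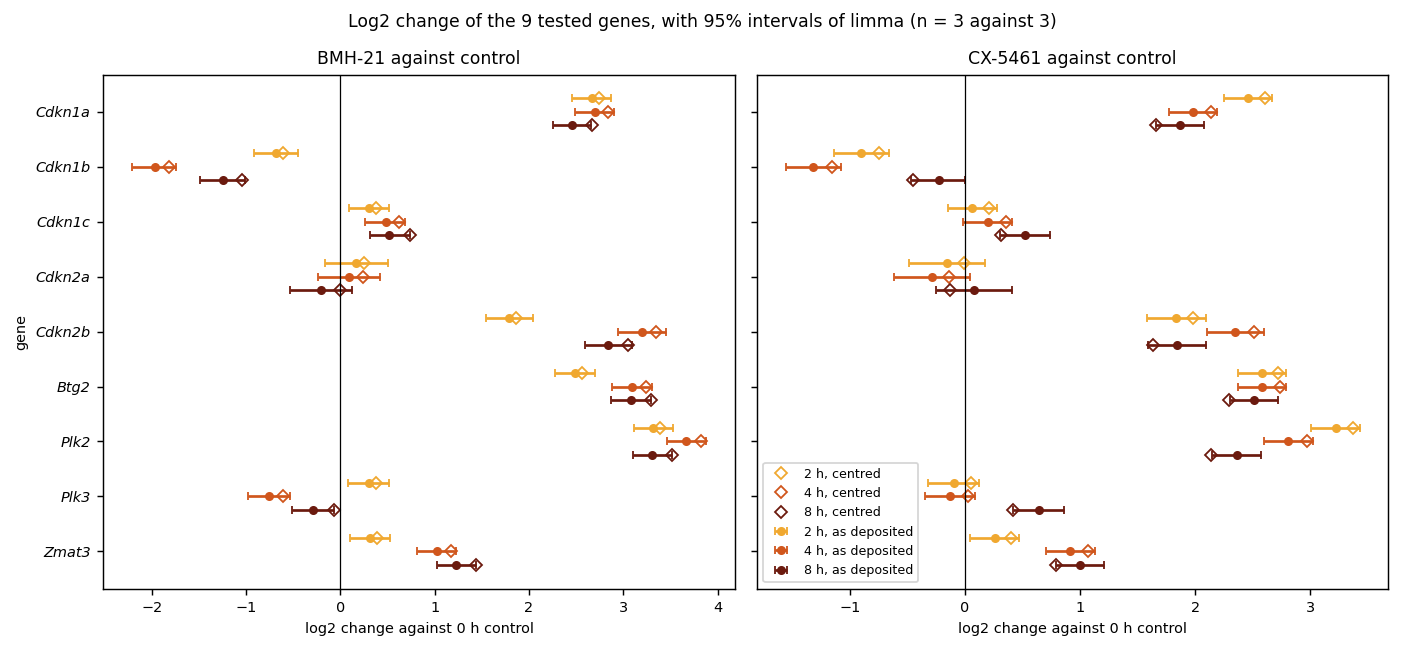
Log2 change against 0 h control (x axis) of the 9 tested genes for BMH-21 and CX-5461 at 2, 4 and 8 h, as deposited (filled, with 95% intervals of limma, n = 3 against 3) and after centring (open). Cdkn1a, Cdkn2b, Btg2 and Plk2 lie at 1.63 or above in every group on both scales, and Cdkn1b lies below 0.

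Levels of different genes can be compared only per length, here as log2 level per kilobase of the union of annotated exons. In control Cdkn1c was highest at 4.22, followed by Plk3 (3.88), Cdkn1a (3.40), Btg2 (3.36), Zmat3 (3.16), Plk2 (2.72), Cdkn1b (2.56), Cdkn2a (1.45), Cdkn2b (0.42) and Cdkn2c (-1.95). After 4 h of BMH-21 the highest level per kilobase was that of Btg2 (6.44), ahead of Plk2 (6.39) and Cdkn1a (6.10), while Cdkn1b (0.59) was below Cdkn2b (3.62) and Cdkn2a (1.54). After 8 h of CX-5461 Btg2 (5.87), Cdkn1a (5.27) and Plk2 (5.08) led, and Cdkn1b (2.33) and Cdkn2b (2.26) lay side by side. These lengths assume that all annotated exons were used.

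The question of whether the 2 inhibitors differed was asked at each matched time, at the same dose of 1 µM. At 2 h, 1 of 9 tested members was called, higher with BMH-21, beside 3.99% of all genes (2.47% higher and 1.52% lower). After centring, 2 members were higher and 1 lower at 2 h, with 7.83% of all genes higher and 7.58% lower. At 4 h, 4 were higher and 2 lower with BMH-21 (17.8% of all genes called, 9.35% higher and 8.49% lower), and 5 and 2 after centring (27.4% higher and 18.5% lower). At 8 h, 5 were higher and 2 lower (79.2% of all genes called, 12.0% higher and 67.2% lower). Centring removed a shift of -0.43 at 8 h, after which 6 members were higher and 2 lower, and 31.1% of all genes were higher and 40.6% lower. The members' median difference at 8 h was 0.23, against -0.48 over all tested genes.

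Plk2 and Cdkn2b differed most between the inhibitors among the genes that rose with both. Plk2 was 0.86 ± 0.11 higher with BMH-21 at 4 h (1.82-fold, limma adjusted p = 7.1e-11) and 0.95 ± 0.11 higher at 8 h (1.93-fold, limma adjusted p = 3.1e-14). Cdkn2b was 0.85 ± 0.13 higher at 4 h and 1.00 ± 0.13 higher at 8 h (2.00-fold, limma adjusted p = 1.1e-11). Cdkn1a was 0.72 ± 0.10 and 0.58 ± 0.10 higher (limma adjusted p = 3.3e-08 and 3.5e-07), and Btg2 was 0.51 ± 0.11 and 0.57 ± 0.11 higher (limma adjusted p = 1.3e-04 and 1.0e-06). In all of these 4 genes the BMH-21 libraries lay above the CX-5461 libraries without overlap at 4 and 8 h, as they did in 13.7% and 12.6% of all tested genes. After centring, their differences at 8 h were 1.38 for Plk2, 1.43 for Cdkn2b, 1.01 for Cdkn1a and 0.99 for Btg2. At 2 h the 95% intervals of the difference were 0.00 to 0.41 for Cdkn1a, -0.30 to 0.21 for Cdkn2b, -0.30 to 0.12 for Btg2 and -0.11 to 0.30 for Plk2, and none passed on the deposited scale. After centring, Btg2 was called lower with BMH-21 at 2 h (-0.16, limma adjusted p = 0.0049), opposite to 4 and 8 h, and Cdkn1a higher (0.14, adjusted p = 0.026). Median-ratio factors and quantile normalization also called Btg2 lower, at -0.19 and -0.20.

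Cdkn1b and Plk3 were lower with BMH-21 than with CX-5461 at 4 and 8 h. For Cdkn1b the differences were -0.65 ± 0.12 and -1.02 ± 0.12 (limma adjusted p = 1.1e-05 and 3.6e-13), and -0.59 at 8 h after centring. Plk3 differed by -0.63 ± 0.11 and -0.92 ± 0.11 (limma adjusted p = 4.5e-06 and 9.3e-13), and by -0.50 at 8 h after centring. At 2 h Plk3 was the called member, 0.40 ± 0.11 higher with BMH-21 (limma adjusted p = 0.017), a call lost without BMH-21 2 h replicate 2 (0.34), CX-5461 2 h replicate 2 (0.36) or CX-5461 2 h replicate 3 (0.34). Plk3 thus changed sides between 2 and 4 h.

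Zmat3 differed by 0.23 ± 0.11 at 8 h (limma adjusted p = 0.046), with overlapping libraries. This call was lost without any 1 of the 6 libraries except BMH-21 8 h replicate 2, with differences from 0.16 to 0.36, whereas after centring the difference was 0.66 (adjusted p = 5.0e-11). Cdkn1c did not pass at any time on the deposited scale, with intervals of 0.03 to 0.46, 0.06 to 0.49 and -0.21 to 0.22. At 4 h it passed without CX-5461 4 h replicate 2, at 0.32 (limma adjusted p = 0.038), and at 2 h without CX-5461 2 h replicate 1, at 0.37 (adjusted p = 0.04). After centring Cdkn1c passed at 4 h (0.27) and at 8 h (0.43, adjusted p = 1.3e-05). Cdkn2a did not pass at any time, with intervals of 0.00 to 0.66, 0.05 to 0.71 and -0.63 to 0.03, but at 4 h it passed without CX-5461 4 h replicate 2, at 0.59 (adjusted p = 0.012).

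**Figure D4:**
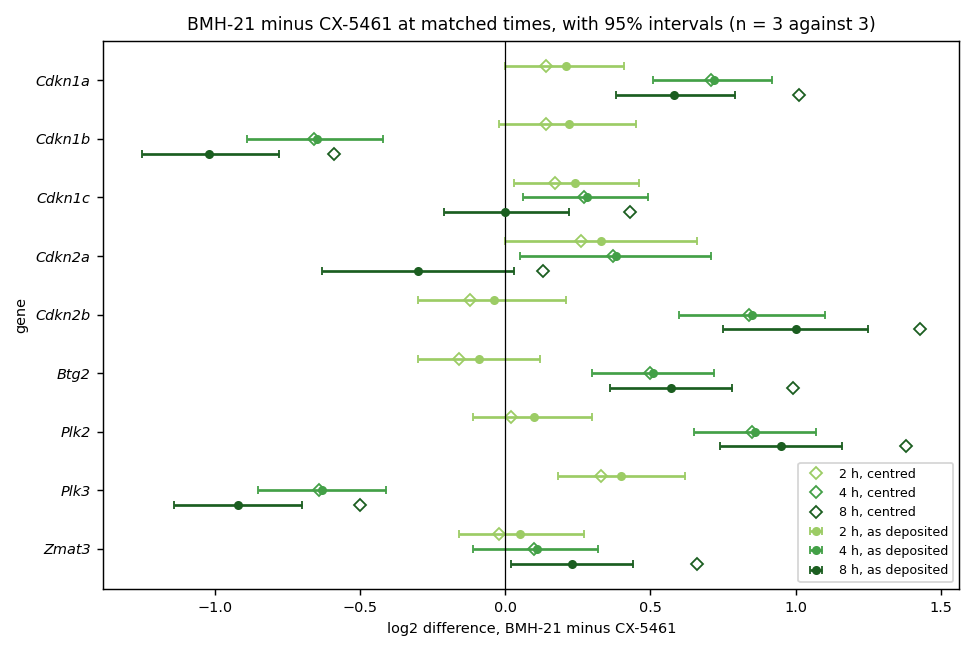
Log2 difference BMH-21 minus CX-5461 (x axis) of the 9 tested genes at 2, 4 and 8 h, as deposited (filled, with 95% intervals of limma, n = 3 against 3) and after centring (open). Cdkn1a, Cdkn2b, Btg2 and Plk2 lie right of 0 at 4 and 8 h, from 0.51 to 1.00 as deposited, and Cdkn1b and Plk3 lie left of 0.

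Steps in time within each inhibitor show when each member moved. From 2 to 4 h of BMH-21, 4 members rose and 2 fell, where 55.6% of all tested genes changed (20.8% higher and 34.8% lower). After centring 6 rose and 2 fell (29.0% and 39.3% of all genes), with Cdkn1a (0.10, limma adjusted p = 0.036) and Cdkn1c (0.24, adjusted p = 0.0046) added. Cdkn2b rose by 1.41 ± 0.13 (limma adjusted p = 8.4e-19), Zmat3 by 0.71 ± 0.11, Btg2 by 0.60 ± 0.11 and Plk2 by 0.35 ± 0.11, while Cdkn1b fell by 1.29 ± 0.12 (limma adjusted p = 3.1e-18) and Plk3 fell by 1.06 ± 0.11. From 4 to 8 h, 2 rose and 3 fell (56.4% of all genes changed, 18.6% higher and 37.8% lower), and after centring 3 rose and 3 fell (28.3% and 42.2% of all genes). Cdkn1b and Plk3 rose again, by 0.72 ± 0.12 and 0.48 ± 0.11. Cdkn2b and Plk2 fell by 0.36 ± 0.13 and 0.36 ± 0.11, though Plk2 was 0.05 higher with quantile normalization and the call of Cdkn2b was lost without BMH-21 4 h replicate 1 (-0.24, limma adjusted p = 0.14). Cdkn1a fell by 0.24 ± 0.10 (limma adjusted p = 0.041), a call lost without BMH-21 4 h replicate 1 or 3 or BMH-21 8 h replicate 1 or 2, with values from -0.30 to -0.16. Under quantile normalization Cdkn1a was called in the opposite direction, at 0.11 (adjusted p = 0.028).

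From 2 to 4 h of CX-5461, 2 members rose and 3 fell, where 47.5% of all tested genes changed (20.7% higher and 26.8% lower), and after centring again 2 rose and 3 fell (26.7% and 40.2% of all genes). Zmat3 rose by 0.66 ± 0.11 and Cdkn2b by 0.51 ± 0.13, and Cdkn1a fell by 0.48 ± 0.10 (limma adjusted p = 5.4e-05), Cdkn1b by 0.42 ± 0.12 and Plk2 by 0.42 ± 0.11. From 4 to 8 h, 4 rose and 2 fell (63.7% of all genes changed, 58.8% higher and 4.85% lower). Centring removed a shift of 0.37, after which 2 rose and 5 fell (25.8% and 32.0% of all genes). Cdkn1b rose by 1.09 ± 0.12 (limma adjusted p = 7.4e-14) and Plk3 by 0.77 ± 0.11 (limma adjusted p = 2.4e-09), and by 0.71 and 0.40 after centring. Plk2 fell by 0.45 ± 0.11 and Cdkn2b by 0.51 ± 0.13, and after centring by 0.82 and 0.88. Cdkn1a, Btg2 and Zmat3 fell after centring, by 0.48, 0.44 and 0.28 (limma adjusted p = 1.1e-09, 1.5e-09 and 4.0e-05). They were also lower with median-ratio factors, by 0.48, 0.43 and 0.28, and with quantile normalization, by 0.39, 0.34 and 0.16. Their deposited changes of -0.11, -0.07 and 0.09 did not pass. Cdkn1c was 0.32 ± 0.11 higher on the deposited scale (limma adjusted p = 0.0077) and -0.05, -0.04 and -0.03 different after centring, with median-ratio factors and with quantile normalization. Cdkn2a was 0.38 ± 0.17 higher (limma adjusted p = 0.041), with overlapping libraries. That call was lost after centring (0.00) and without CX-5461 4 h replicate 1 or 3 or CX-5461 8 h replicate 1 or 3, with values from 0.15 to 0.59.

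Whether the step from 4 to 8 h differed between the inhibitors was tested as an interaction. On the deposited scale 0 members were higher and 2 lower, where 69.4% of all tested genes passed (7.98% higher and 61.4% lower). After centring, which removed a shift of -0.44, 6 members were higher and 0 lower, where 24.0% of all genes were higher and 36.2% lower. Plk2 and Btg2 were among those 6, at 0.52 and 0.50 after centring (limma adjusted p = 6.2e-08 and 6.1e-08), against 0.09 ± 0.15 and 0.06 ± 0.15 as deposited. Which members passed thus rested on the scaling, while Plk2 and Btg2 were above 0 on both scales.

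For Cdkn1a, Btg2, Plk2, Plk3 and Zmat3, the genes with the most similar course were ranked by Pearson's r over the 21 libraries, as a description. All libraries share the 0 h control and the group structure, so high values were common. Plk2 and Cdkn1a were each other's first match among all tested genes (r = 0.993), with Gdf15 second for both (0.986 for Cdkn1a and 0.989 for Plk2). The third for Cdkn1a was Bbc3, the gene of the apoptosis protein PUMA (0.968). Btg2 was closest to Fam212b (0.981), Ddit4l (0.975) and Ccng1 (0.973). Plk3 had weaker matches in Tob2 (0.953), Pnma3 (0.937) and Cradd (0.933), which were 0.881, 0.888 and 0.855 after centring. Zmat3 was closest to Mlec (0.987), Camk2b (0.986) and Ctc1 (0.985), but after centring these ranked 18, 241 and 3. Bbc3 then ranked 4 for Cdkn1a, and Ccng1 ranked 5 for Btg2.

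Relatives of the members moved in different directions. Of 12 genes (other INK4, BTG/TOB and polo-like kinase genes, Cdkn3 and the CCR4-NOT deadenylases Cnot7 and Cnot8), 11 were tested and Btg4 was below the filter. At 4 h of BMH-21, 3 rose and 8 fell, beside 22.1% and 44.9% of all tested genes. At 8 h of CX-5461, 6 rose and 2 fell on the deposited scale, beside 35.1% and 14.3%, but 3 rose and 4 fell after centring, beside 29.3% and 44.7%. Btg1, a paralogue of Btg2, rose by 2.54 at 4 h of BMH-21 and 1.59 at 4 h of CX-5461 (limma adjusted p = 3.0e-44 and 2.5e-26), while Btg3 fell by 0.48 at 4 h of BMH-21 (limma adjusted p = 1.2e-04). Plk5 rose by 1.97 at 8 h of BMH-21 and 1.80 at 8 h of CX-5461. Plk1, the mitotic polo-like kinase, fell by 1.34 and 0.66 at these points (limma adjusted p = 6.3e-23 and 6.3e-08), and Plk4, which drives centriole duplication, fell by 0.60 at 8 h of BMH-21 and had a change of -0.09 at 8 h of CX-5461. Cdkn2d, the INK4 gene of p19, fell by 0.33 at 4 h of BMH-21 (limma adjusted p = 0.012) and by 0.35 at 2 h of CX-5461 (0.025), had a change of 0.06 at 8 h of BMH-21, and rose by 0.39 at 8 h of CX-5461 (0.0046).

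Kinases and cyclins that the CDK inhibitors bind fell mostly at the later times. Of 14 such genes, Pcna included, 2 fell at 2 h of BMH-21 and 8 at 2 h of CX-5461, beside 11.2% and 20.5% of all tested genes. At 4 and at 8 h of BMH-21 and at 4 h of CX-5461, 13 fell and 1 rose, beside 44.9%, 56.9% and 51.2% of all genes that fell. At 8 h of CX-5461, 8 fell and 1 rose (14.3% of all genes fell), and 12 and 1 after centring (44.7%). Their median change at 8 h of BMH-21 was -1.11, against -0.40 over all tested genes. Ccnd2 and Cdk6 fell by 2.46 and 2.39 there (limma adjusted p = 2.6e-40 and 2.0e-33). With 8 h of CX-5461 Cdk6 fell by 0.95 (limma adjusted p = 2.8e-09) and Ccnd2 had a change of 0.03. The gene that rose was Ccna1, a cyclin known from germ cells, by 2.55 at 8 h of BMH-21 (limma adjusted p = 5.3e-22) from a low control level of -0.74 ± 0.41 (SD, n = 3).

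Downstream of the CDKs lie the pocket proteins, which hold E2F factors inactive. Of their genes Rb1 and Rbl2 rose, whereas Rbl1, named after its values were seen, fell by 0.28 at 4 h and 1.00 at 8 h of BMH-21 (limma adjusted p = 0.036 and 4.3e-13) and had a change of -0.25 at 8 h of CX-5461 that did not pass. Rb1 rose by 2.46 at 4 h and 3.23 at 8 h of BMH-21 (limma adjusted p = 5.1e-54 at 8 h). Under CX-5461 its rises at these times were 2.55 and 2.42 (limma adjusted p = 6.6e-41 at 8 h). Rbl2 rose by 2.04 at 8 h of BMH-21 and 1.34 at 8 h of CX-5461. Of the 17 genes of the RB, E2F and DREAM list, 2 rose and 13 fell at 8 h of BMH-21, beside 24.5% and 56.9% of all tested genes, and the repressor E2f8 fell by 1.47. At 8 h of CX-5461, 4 rose and 2 fell as deposited (35.1% and 14.3% of all genes), and 2 rose and 9 fell after centring (29.3% and 44.7%).

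Other p53 targets linked to arrest rose as a majority. Of 14, 9, 10 and 10 rose at 2, 4 and 8 h of BMH-21, with 2, 2 and 1 falling, beside 8.48%, 22.1% and 24.5% of all tested genes that rose. With CX-5461 9, 10 and 12 rose, with 2, 1 and 1 falling, beside 7.45%, 19.8% and 35.1%. Their median change at the 3 times was 1.03, 1.44 and 1.52 under BMH-21, against 1.22, 1.27 and 1.37 under CX-5461. Gadd45a, a stress gene of the same list named after its values were seen, fell in all 6 comparisons, by 1.29 at 8 h of BMH-21 (limma adjusted p = 1.2e-20) and by 0.35 at 8 h of CX-5461 (0.0059). Ptprv, a receptor phosphatase gene, rose by 3.63 at 8 h of BMH-21 and 3.17 at 8 h of CX-5461 (limma adjusted p = 3.2e-61 and 3.2e-54). Ddit4, an inhibitor of mTORC1, rose by 3.36 and 2.96 and Trp53inp1 by 2.84 and 1.83. Between the inhibitors at 8 h, 6 of the 14 were higher and 4 lower with BMH-21, beside 12.0% and 67.2% of all tested genes. After centring 11 were higher and 2 lower, beside 31.1% and 40.6%.

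Genes that act on p21 and p27 or on the Cdkn2a-Cdkn2b locus moved in both directions. Of 12 ubiquitin ligase and FOXO genes, 2, 6 and 9 fell at the 3 times of BMH-21, and 1, 2 and 2 rose. At these times 11.2%, 44.9% and 56.9% of all tested genes fell, and 8.48%, 22.1% and 24.5% rose. With CX-5461 4, 9 and 6 fell, beside 20.5%, 51.2% and 14.3%, and 1, 2 and 3 rose, beside 7.45%, 19.8% and 35.1%. After centring 9 of the 12 fell and 3 rose at 8 h of CX-5461, beside 44.7% and 29.3%. At 8 h of BMH-21 Skp2, which targets p27 for degradation, fell by 1.43 (limma adjusted p = 1.3e-23). Foxo4 fell by 1.75 there and Foxo3, a known activator of Cdkn1b, rose by 1.85 (limma adjusted p = 7.4e-30). At 8 h of CX-5461 Skp2 and Foxo4 had changes of -0.15 and -0.24 that did not pass, and Foxo3 rose by 1.34. Of 14 Polycomb and T-box genes, known as repressors of the locus, 3 fell and 3 rose at 2 h of BMH-21. At 4 h 11 fell and 2 rose, and at 8 h 11 fell and 1 rose. At these 3 times 11.2%, 44.9% and 56.9% of all tested genes fell and 8.48%, 22.1% and 24.5% rose. With CX-5461 4, 11 and 3 fell, beside 20.5%, 51.2% and 14.3% of all genes. There 1, 1 and 2 rose, beside 7.45%, 19.8% and 35.1%. After centring 10 fell and 1 rose at 8 h of CX-5461, beside 44.7% and 29.3%. Cbx2 and Suz12 fell by 1.44 and 1.32 at 8 h of BMH-21 (limma adjusted p = 1.9e-24 and 1.0e-22), and Tbx2 rose by 1.53 from a control level of -0.82 ± 0.13 (SD, n = 3). At 8 h of CX-5461 Cbx2 and Suz12 had changes of -0.13 and -0.16 that did not pass.

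**Figure D5:**
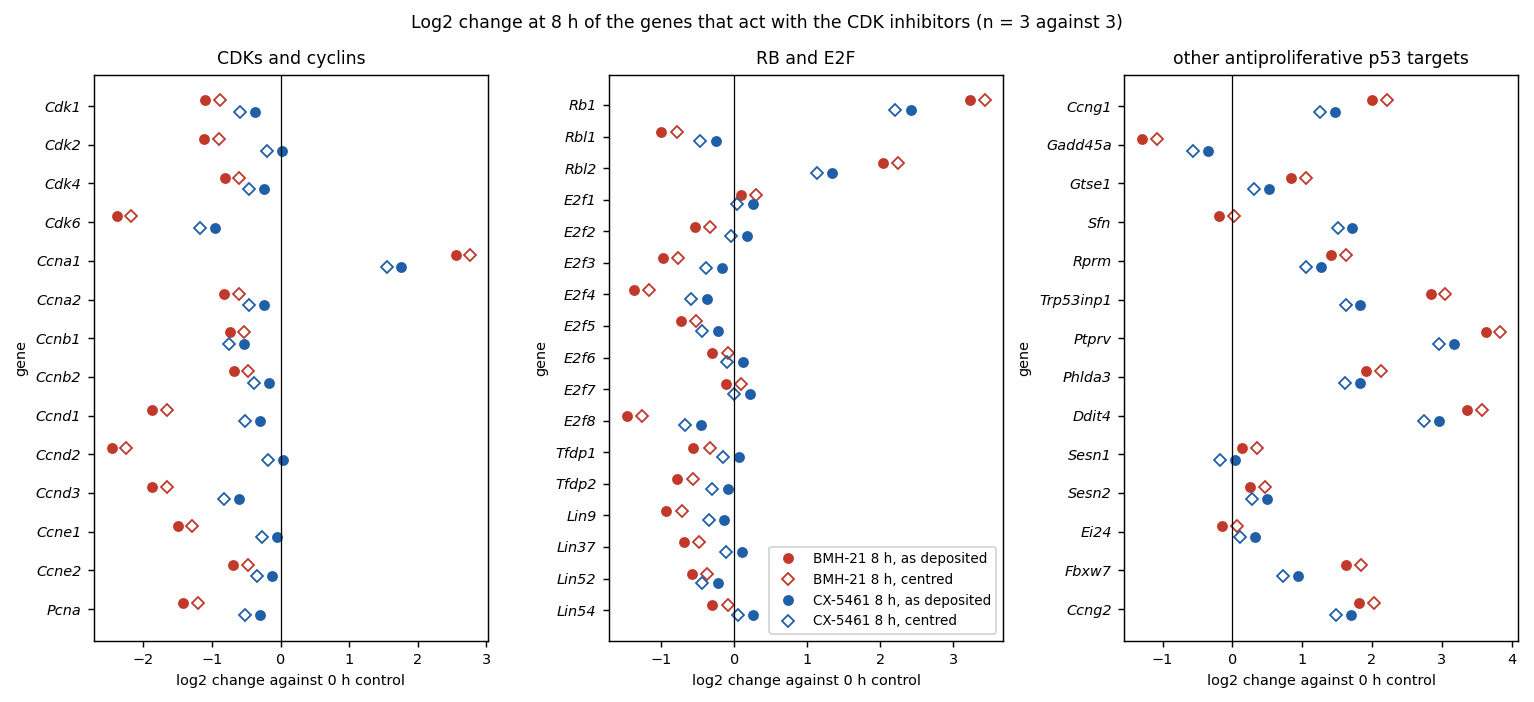
Log2 change against control at 8 h (x axis) of the CDK and cyclin genes, the RB and E2F genes and the other p53 targets linked to arrest, for BMH-21 (red) and CX-5461 (blue), as deposited (filled) and after centring (open), n = 3 against 3. Of the 14 CDK and cyclin genes 13 lie left of 0 with BMH-21, and Rb1 lies right of 0 at 3.23 and 2.42 for the respective inhibitors.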

How the data were processed

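The deposited table holds log2 expression values of 20900 genes in 21 libraries, which the authors made with voom, per the name of the file. Trim Galore 0.5.0, TopHat2 2.1.1, R 4.0.5, DESeq2 1.30.1, edgeR 3.32.1, limma 3.46.0 and the mm10 build are named in the submitters' processing notes, with no order or role. The counting program, its strand setting, the annotation and the filters are not given in the sources used here. Reads recovered from the deposited values, after taking off the offset of 0.5, were whole to within 1.7e-08. The reads per library ran from 46604397 to 62812641, and the deposited scaling factors from 0.832 to 1.375, against 0.941 to 1.107 for median-ratio factors. The spread between replicates exceeded that of sampling (chi-square over degrees of freedom of 2.65 to 27.3).

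Genes with a log2 value above 0 in at least 3 of 21 libraries (14666) were fitted with limma 3.58.1 (R 4.3.3), with 1 mean per group, eBayes with a trend and two-sided Benjamini-Hochberg adjusted p-values over all tested genes in each of 14 comparisons, at a threshold of 0.05. A gene's own spread had little weight, since limma's prior held 111.5 degrees of freedom and the libraries 14. The offset of 0.5 reads understates changes of low genes. No count model was used, because the unit is log2. On simulated reads for BMH-21 at 2 h against control (14666 genes), 92 of 100 changes of 2-fold and 98 of 100 of 4-fold were recovered. There were 11 false calls and 0 calls in an unchanged comparison. The simulated noise was independent between libraries, used limma's own spread and had no shift in scaling. It thus cannot tell how scaling or deviations shared between libraries affect the calls.

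All 10 members are named. For each list, up to 3 genes with the largest change at 8 h of BMH-21 and no overlap with control are named, along with Cdkn2d, Btg1, Btg3, Plk1 and Plk4, and the 3 genes with the highest Pearson r to Cdkn1a, Btg2, Plk2, Plk3 and Zmat3, of which 1 is not reported here. The members and lists were chosen with earlier results of these data known. The alternatives were no filter, a stricter filter, centring, median-ratio factors, quantile normalization, an offset of 5 reads, no variance trend, voom weights, the compared groups alone, the replicate number as a block, and leaving out each library. Figures were drawn with matplotlib 3.10.9.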

Additional observations from a re-analysis of the deposited data

Results flagged for a closer look

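For 2 genes the step from 4 to 8 h differed between the inhibitors by the interaction test in limma. Cdkn1b rose in both, and its step was -0.36 ± 0.17 (log2, SE) smaller with BMH-21 (adjusted p = 0.048). The call was lost without any 1 of 8 of the 12 libraries, with values from -0.47 to -0.25, and the sign turned after centring (0.07). The step of Cdkn2a was -0.68 ± 0.24 lower with BMH-21 (adjusted p = 0.0082). It was -0.24 after centring (adjusted p = 0.38) and -0.45 without CX-5461 4 h replicate 3 (adjusted p = 0.093), the library with the lowest Cdkn2a value of all 21. The part of library scaling in both was not tested beyond these values.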

How the results depend on the processing

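An offset of 5 reads, a stricter filter and voom weights kept the direction and the call of all 105 gene values. Cdkn1a, Cdkn2b, Btg2 and Plk2 kept their calls against control under every alternative run. Cdkn1b kept its fall at 2 and 4 h of both inhibitors and at 8 h of BMH-21. The causes of the changes below were not tested.

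Members called for BMH-21 against CX-5461 at 2 h numbered 1, and 3 after centring, 2 with median-ratio factors and 2 with quantile normalization (0 to 2 without 1 library). For the step from 4 to 8 h of BMH-21 the count was 5, and 8 with quantile normalization (4 to 5 without 1 library). For the difference of that step between inhibitors it was 2, and 1 with no filter, 6 after centring, 7 with median-ratio factors, 6 with quantile normalization, 1 with no variance trend and 1 with the compared groups alone (0 to 3 without 1 library). At 2 h of BMH-21 it was 8, and 5 to 6 without 1 library, with the lower count without BMH-21 2 h replicate 2 or 3.

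Some signs turned, and 3 of the turned values passed in the new direction: Plk3 at 4 h of CX-5461 with median-ratio factors (adjusted p = 0.022), and with quantile normalization Cdkn2a at 8 h of CX-5461 (0.015) and Cdkn1a from 4 to 8 h of BMH-21 (0.028). With centring, median-ratio factors and quantile normalization, respectively, Plk3 was at 0.05, 0.08 and 0.06 at 2 h and 0.03, 0.12 and 0.08 at 4 h of CX-5461, Cdkn2a at -0.13, -0.03 and -0.48 at 8 h of CX-5461 and at 0.13, 0.18 and 0.02 for BMH-21 against CX-5461 at 8 h. In the same order, Zmat3 was at -0.02, -0.04 and -0.06 between inhibitors at 2 h, Cdkn1c at -0.05, -0.04 and -0.03 for the step from 4 to 8 h of CX-5461, and Cdkn1b at 0.07, 0.18 and 0.02 for the difference of that step. With median-ratio factors Plk3 was at 0.07 and Cdkn2a at 0.14 at 8 h of BMH-21, Cdkn2a at 0.02 at 2 h of CX-5461 and Plk2 at 0.00 between inhibitors at 2 h. With quantile normalization Cdkn2a was at -0.03 at 4 h and Plk3 at 0.01 at 8 h of BMH-21, Plk2 at -0.02 and Zmat3 at -0.01 between inhibitors at 2 and 4 h, Cdkn1a at 0.11 and Plk2 at 0.05 for the step from 4 to 8 h of BMH-21, and Cdkn2a at -0.07 for that of CX-5461.

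Leaving out 1 library turned the sign of Cdkn2a at 4 h of BMH-21 (-0.04 to 0.28) and at 2 and 8 h of CX-5461 (-0.31 to 0.03 and -0.04 to 0.27), of Cdkn1c at 2 h of CX-5461 (-0.07 to 0.14), and between inhibitors of Cdkn2b and Zmat3 at 2 h (-0.13 to 0.05 and -0.01 to 0.13) and Cdkn1c at 8 h (-0.06 to 0.04).

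Same-numbered libraries did not deviate together (r from -0.25 to 0.11 over 63 pairs), so the numbers were not taken as pairs. Between groups, differently numbered libraries had r from -0.26 to 0.38 over 126 pairs. Of these 14 were over 0.1, against 1 same-numbered pair, so some libraries of different groups shared deviations. The source of these was not tested. With the replicate number as a block, the calls of Plk3 at 2 h of BMH-21 (adjusted p = 0.053), Zmat3 between inhibitors at 8 h (0.054), Cdkn1a from 4 to 8 h of BMH-21 (0.052) and Cdkn1b in the difference of that step (0.055) were lost, and the last count was 1.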
